A study of Mus musculus with 46 samples.

Results

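The platelet-derived growth factor (PDGF) genes comprise 4 ligand genes (Pdgfa, Pdgfb, Pdgfc and Pdgfd), 2 receptor genes (Pdgfra and Pdgfrb) and the receptor-like gene Pdgfrl, and all 7 were found by symbol among the 53465 genes of the expression table. RNA-seq had been performed on 4 populations of cells, flow-sorted from the kidneys of wild-type male C57BL/6 mice aged 8 to 12 weeks. They were proximal tubular cells that bind Lotus lectin (PT), F4/80+ macrophages, CD31+ endothelial cells and PDGFRB+ stromal cells. The mice had undergone a sham operation, unilateral ureteric obstruction (UUO) or reversal of the obstruction (rUUO). According to the methods, UUO animals were culled 2 or 7 days after obstruction and rUUO animals 14 days after reversal, and the labels do not say on which day a UUO sample was taken. Sham, UUO and rUUO were represented by 3, 4 and 3 PT samples, 4, 4 and 3 macrophage samples, 4, 3 and 4 endothelial samples, and 4 samples each in stromal cells, 44 in all. The labels number the replicates, and the p-values measure only the spread between these samples, which may in part be technical.

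PDGF ligands are secreted dimers. PDGF-A and PDGF-B are released in active form after furin-type processing, whereas PDGF-C and PDGF-D are latent until a protease such as tissue plasminogen activator, urokinase or matriptase removes their CUB domain. They act on PDGFRα and PDGFRβ, which are class III receptor tyrosine kinases: PDGF-A and PDGF-C act mainly on PDGFRα, PDGF-D on PDGFRβ, and PDGF-B on both. Pdgfrl codes for a receptor-like protein without a kinase domain. In the kidney, endothelial PDGF-B is known for recruiting pericytes and mesangial cells that carry PDGFRβ, and PDGF signalling is known to drive fibroblasts and pericytes in fibrosis.

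In stromal cells Pdgfa and Pdgfc fell together and Pdgfra rose, and the RefSeq promoters of these genes (GRCm38.p6, 250 bases before to 50 after a start site, printed on the gene's strand) are shown here so that the sequences around their start sites can be read beside the values. Pdgfb and Pdgfrb, which also fell, and Pdgfrl, which also rose, had no entry among the promoters used and are not shown. Pdgfa has 2 entries on the minus strand, at chr5:138994232-138994531 and chr5:138994895-138995194. Pdgfc lies at chr3:81036166-81036465 and Pdgfra at chr5:75152001-75152300, both on the plus strand. Capitals mark matches to the motifs searched, each on both strands. The SP1 motif has the letters GGGCGG. The AP-1 motif, a site of Fos and Jun dimers, was searched as TGANTCA with any base at N. The core promoter motif was searched as TATAAA. The EGR motif and the CArG box, a site of serum response factor, are given by name. The G-rich letters of SP1 and EGR can overlap.
Pdgfa, first entry: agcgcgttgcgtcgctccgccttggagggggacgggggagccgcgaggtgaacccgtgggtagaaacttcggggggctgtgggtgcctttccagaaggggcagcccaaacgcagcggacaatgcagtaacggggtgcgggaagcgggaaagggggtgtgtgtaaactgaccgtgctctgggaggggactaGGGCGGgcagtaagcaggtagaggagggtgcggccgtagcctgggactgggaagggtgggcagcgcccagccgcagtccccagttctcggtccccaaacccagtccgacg
Pdgfa, other entry: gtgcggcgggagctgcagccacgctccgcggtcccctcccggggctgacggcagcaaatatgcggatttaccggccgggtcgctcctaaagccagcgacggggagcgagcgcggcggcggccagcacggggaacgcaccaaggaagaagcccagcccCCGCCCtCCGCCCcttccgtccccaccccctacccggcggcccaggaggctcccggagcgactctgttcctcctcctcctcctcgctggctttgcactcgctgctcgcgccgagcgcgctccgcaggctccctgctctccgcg
Pdgfc: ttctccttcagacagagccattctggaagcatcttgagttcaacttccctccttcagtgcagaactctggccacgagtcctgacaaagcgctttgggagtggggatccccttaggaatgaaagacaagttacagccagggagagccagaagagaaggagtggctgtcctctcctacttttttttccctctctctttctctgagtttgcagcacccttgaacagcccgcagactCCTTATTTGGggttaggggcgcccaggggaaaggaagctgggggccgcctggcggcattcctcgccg
Pdgfra: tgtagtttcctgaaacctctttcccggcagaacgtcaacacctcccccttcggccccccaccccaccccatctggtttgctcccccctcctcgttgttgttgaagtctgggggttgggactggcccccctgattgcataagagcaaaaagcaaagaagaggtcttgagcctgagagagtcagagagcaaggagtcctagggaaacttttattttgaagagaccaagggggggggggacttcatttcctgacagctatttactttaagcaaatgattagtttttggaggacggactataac

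The Pdgfc window held 1 CArG box, CCTTATTTGG, whose first base lies at -17 from the start site, and 1.63% of 32851 mouse promoters of the same length hold a CArG box. The SP1 letters were found once in the first Pdgfa window (at -60) and 2 times in the other (at -93 and -86), against 35.7% of these 32851 promoters with at least 1 match. None of the 5 motifs was found in the Pdgfra window. The Pdgfd window, which is not printed, held 1 core promoter motif at -160. Over the same promoters, which leave out chromosome 18, AP-1 was found in 7.81%, the core promoter motif in 13.6% and EGR in 3.47%. Pdgfb lies on chromosome 15 (79995900 to 80014808, minus strand), Pdgfd on chromosome 9 (6168584 to 6378850, plus), Pdgfrb on chromosome 18 (61045150 to 61085061, plus) and Pdgfrl on chromosome 8 (40926212 to 40990785, plus), all in GRCm38. These matches describe letters in a window and say nothing of which factor was bound.

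Expression was given as FPKM, fragments scaled by transcript length and by the total mapped, which allows levels to be compared between genes of different length. FPKM summed to between 586929 and 884982 per sample, and depth in reads is unknown. Genes of the mitochondrial genome took 58.7% to 75.6% of FPKM in PT and 20.2% to 45.8% in the other populations, so nuclear transcripts share a smaller remainder in PT. Each population carried its own markers: the summed FPKM of 7 PT markers was at least 1807 in PT and at most 347 elsewhere, that of 7 macrophage markers at least 10309 in macrophages and at most 137 elsewhere, that of 7 endothelial markers at least 2545 in endothelial cells and at most 112 elsewhere, and that of 7 fibroblast markers at least 978 in stromal cells and at most 108 elsewhere. Sham stromal and endothelial samples also held transcripts of 5 distal tubule and collecting duct markers, 364 to 565 and 167 to 859 summed FPKM. In sorted bulk samples, fewer cells of a type and less RNA per cell cannot be told apart.

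After sham surgery, the 4 ligands were not all highest in the same population. Pdgfb, the ligand of both receptors, was highest in endothelial cells and macrophages. It was 51.9, 56.9, 49.7 and 35.1 FPKM in the 4 endothelial samples and 39.6, 37.0, 48.9 and 32.4 FPKM in the 4 macrophage samples. These groups overlapped, and the macrophage level was lower than the endothelial level by 0.28 on the log2(FPKM + 1) scale (SE 0.22, adjusted p = 0.330). Rescaled without mitochondrial genes, this difference was -0.63 and passed (adjusted p = 0.0303). Stromal cells followed at 16.8, 13.0, 10.5 and 8.51 FPKM, below every macrophage and endothelial sample, and PT had 1.27, 0.90 and 0.88 FPKM. The macrophage minus stromal difference was 1.64 log2 units (SE 0.22, adjusted p = 9.67e-06) and PT was lower still (PT minus stromal -2.68, SE 0.24, adjusted p = 6.93e-08).

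Pdgfa, the ligand of PDGFRα, was highest in stromal cells, at 35.9, 29.0, 22.2 and 25.9 FPKM. Endothelial cells had 13.6, 8.65, 19.8 and 9.97 FPKM, all below the stromal samples, with a difference of -1.11 log2 units (SE 0.31, adjusted p = 0.0144, and 0.0594 with a pseudocount of 0.1). Macrophages had 5.16, 4.46, 6.90 and 9.01 FPKM and overlapped the endothelial range: the difference of -0.90 log2 units passed the test (SE 0.31, adjusted p = 0.0270) but not without macrophage replicate 1 or 2 or endothelial replicate 1 or 3 (adjusted p = 0.0608 to 0.0954), nor with a pseudocount of 0.1, no filter or quantile normalization (0.0510 to 0.0681). PT had the lowest levels, at 1.69, 0.42 and 2.57 FPKM. The PT minus macrophage difference was -1.59 log2 units (adjusted p = 0.000615), and it was -0.76 (adjusted p = 0.109) when FPKM was rescaled without mitochondrial genes and -0.54 (adjusted p = 0.233) after quantile normalization.

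Pdgfc, a latent ligand, was highest in the stromal samples, at 23.4, 18.8, 23.0 and 16.5 FPKM, and no sham sample of another population exceeded 4.88 FPKM. PT came next with 4.08, 4.88 and 3.70 FPKM, above every endothelial sample (1.81, 0.93, 2.88 and 2.08 FPKM). The PT minus endothelial difference of 0.87 log2 units (SE 0.33, adjusted p = 0.0320) lost its call without any 1 of the 3 PT samples or endothelial replicate 1 or 2 (adjusted p = 0.0537 to 0.101), and under 3 further alternatives (0.0557 to 0.127). Macrophages had 2.25, 0.71, 0.51 and 0.16 FPKM and did not differ from endothelial cells past the threshold (-0.68 log2 units, adjusted p = 0.0791). The difference passed under 4 alternatives: with a pseudocount of 0.1 (-1.35, adjusted p = 0.0445), rescaled without mitochondrial genes (-0.82, 0.0293), without macrophage replicate 1 (-0.98, 0.00953) and without endothelial replicate 2 (-0.87, 0.0337).

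Pdgfd, the latent ligand of PDGFRβ, was shared by endothelial cells (19.7, 28.4, 20.9 and 17.3 FPKM) and stromal cells (19.3, 19.4, 9.35 and 16.6 FPKM). These ranges overlapped, and the difference of 0.42 log2 units did not pass the test (SE 0.26, adjusted p = 0.285). PT had 0.32, 0.17 and 0.21 FPKM and macrophages 0.14, 0.73, 0.29 and 0.04 FPKM, with all samples of both below 1 FPKM.

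All 3 receptor genes were stromal. Pdgfra was 81.2, 101.5, 95.0 and 66.3 FPKM in the sham stromal samples, and its means elsewhere were 2.73 ± 1.78 (SD, n = 4) in endothelial cells, 1.91 ± 1.15 (n = 4) in macrophages and 0.643 ± 0.085 (n = 3) in PT. Macrophages did not pass against endothelial cells (-0.35, adjusted p = 0.445) or PT (PT minus macrophage -0.71, adjusted p = 0.116), while PT minus endothelial passed at -1.07 (adjusted p = 0.0242) but not without PT replicate 2 or 4 or endothelial replicate 2 or 4 (0.0512 to 0.0839), nor after quantile normalization (-0.15, adjusted p = 0.782), rescaling without mitochondrial genes (-0.69, 0.146) or without the filter (0.0514). The endothelial minus stromal difference was -4.64 log2 units (SE 0.35, adjusted p = 2.63e-08). Pdgfrl was 9.89, 16.2, 18.4 and 12.5 FPKM in stromal cells and did not exceed 1.09 FPKM in any sample of another population. Pdgfrb was 201.6, 233.2, 257.8 and 157.1 FPKM in stromal cells. Its protein is the one the stromal cells were sorted on, so its level between populations is a check of the sort and not a result.

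Over the 7 genes, 32 of 42 tests between pairs of populations passed in sham samples, 5 of them for Pdgfrb, the gene of the sort protein. A gene entered this fit if its sham mean reached 1 FPKM in at least 1 population. Sham means lay below 1 FPKM for Pdgfrl outside stromal cells (0.165 to 0.227) and for Pdgfd in PT (0.23) and macrophages (0.30). They also did for Pdgfc in macrophages (0.91), Pdgfra in PT (0.64) and Pdgfrb in PT and macrophages. Calls for these genes in part follow from the filter. Transcripts differed widely between these populations: 59.7% of all genes tested passed between PT and macrophages, 54.3% between PT and endothelial cells, 61.0% between PT and stromal cells, 43.0% between macrophages and endothelial cells, 46.3% between macrophages and stromal cells and 23.1% between endothelial and stromal cells. The corresponding counts for the 7 PDGF genes were 3, 6, 7, 3, 7 and 6, and these comparisons share their samples.

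**Figure D1:**
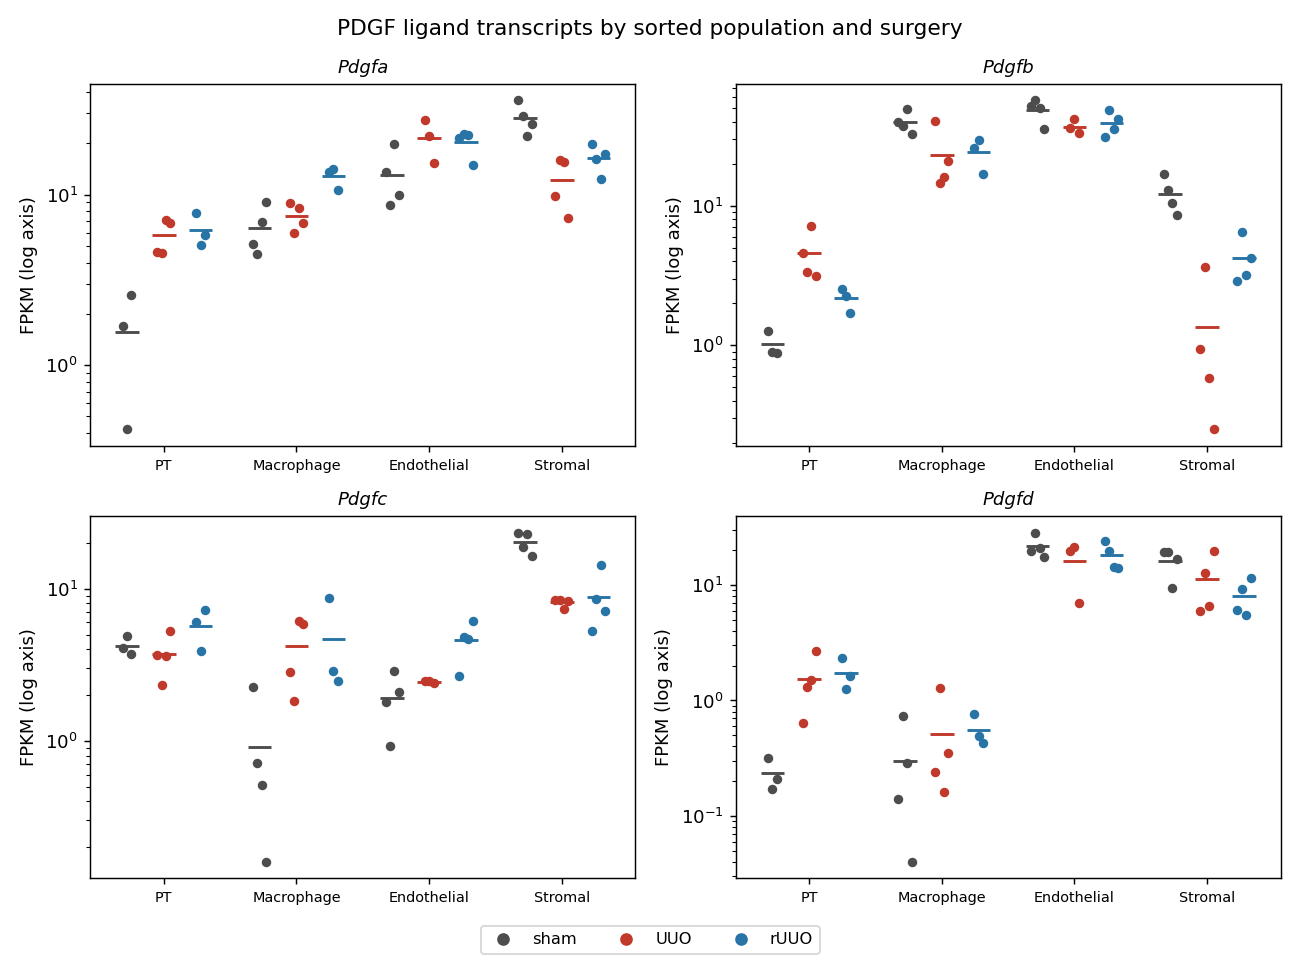
FPKM of the 4 PDGF ligands (log axis) in each sample, by population and surgery; each point is 1 sample and each line a group mean. Sham Pdgfb is highest in endothelial cells (mean 48.4) and macrophages (39.5), and stromal Pdgfb falls from 12.2 in sham to 1.36 after UUO.

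Added together, the 4 ligands came to 84.9 ± 14.04 FPKM (SD, n = 4) in sham endothelial cells, 77.0 ± 13.9 (n = 4) in stromal cells, 47.1 ± 6.79 (n = 4) in macrophages and 7.03 ± 0.57 (n = 3) in PT. Pdgfb made up 83.6% of this sum in macrophages and 56.8% in endothelial cells, Pdgfc made up 60.8% in PT, and in stromal cells the largest share was Pdgfa with 36.6%. After UUO the sum was 32.9 ± 6.75 FPKM (n = 4) in stromal cells and 15.6 ± 3.68 (n = 4) in PT. In PT, Pdgfc then held 23.9% and Pdgfa 37.1%. These sums count transcripts and were not tested.

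**Figure D2:**
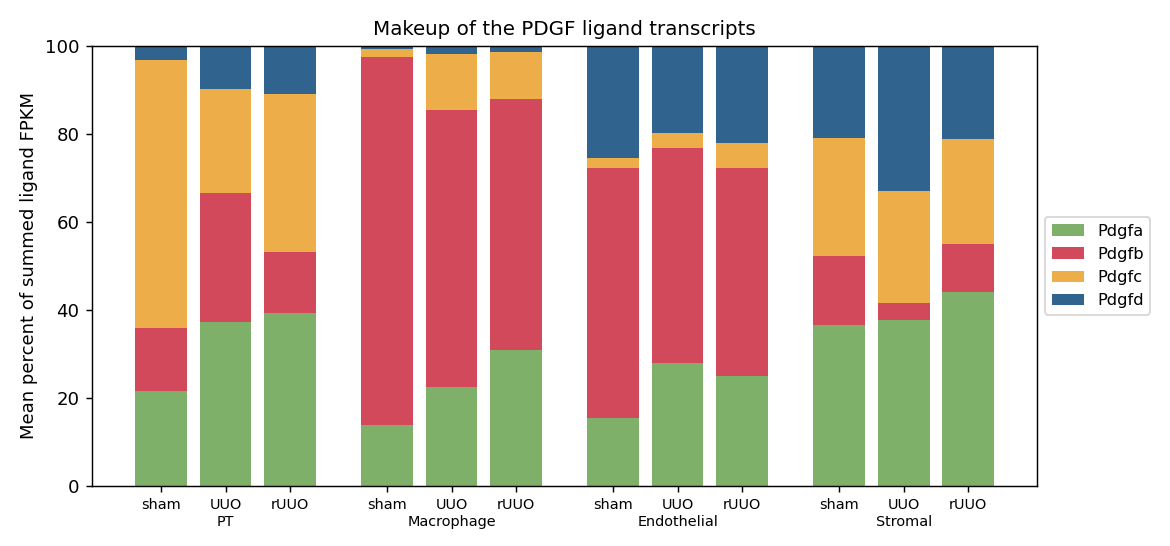
Mean share of each ligand, in percent of the summed FPKM of the 4 ligands, in each population and surgery group (groups of 3 or 4 samples). Pdgfb holds 83.6% of the macrophage sum in sham and 57.1% in rUUO, and its stromal share goes from 15.6% in sham to 3.83% in UUO.

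In stromal cells 6 of the 7 PDGF genes passed the test between UUO and sham (limma on log2(FPKM + 1), adjusted p under 0.05 over all genes tested). All 7 had passed the filter of a mean of at least 1 FPKM. The share of all 14033 genes tested that passed was 26.4%, with 13.4% higher and 13.0% lower in UUO. Pdgfra and Pdgfrl rose and Pdgfa, Pdgfb, Pdgfc and Pdgfrb fell. The median change of the 7 genes was -0.88 log2 units, and that of all genes was -0.07.

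The 2 signalling receptors moved in opposite directions. Pdgfra, which codes for PDGFRα, rose from 81.2, 101.5, 95.0 and 66.3 FPKM in sham to 108.3, 128.9, 133.4 and 170.3 FPKM in UUO, and the 2 groups did not overlap. The change was 0.65 log2 units (SE 0.18, adjusted p = 0.0158). The call was lost without sham replicate 4 (0.53, adjusted p = 0.0536) or UUO replicate 4 (0.53, adjusted p = 0.0528), and also after quantile normalization (0.31, adjusted p = 0.150) or rescaling without mitochondrial genes (0.47, adjusted p = 0.0682) or with 1 fit over all populations (adjusted p = 0.0983), within a range of adjusted p from 0.00846 to 0.150 over 20 alternatives. The direction held in all of them.

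Pdgfrb, which codes for PDGFRβ, fell from 201.6, 233.2, 257.8 and 157.1 FPKM to 92.9, 93.0, 174.4 and 107.9 FPKM. UUO replicate 3 overlapped the lowest sham sample and the other UUO samples lay below all of sham. The change was -0.88 log2 units (SE 0.21, adjusted p = 0.00502) and was called under all 20 alternatives. Since the cells were gated on PDGFRB protein, the gate bears on this level, and its part in the change was not tested.

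Pdgfrl rose from 9.89, 16.2, 18.4 and 12.5 FPKM to 50.4, 45.2, 28.9 and 30.1 FPKM, with no overlap between the groups. This was 1.37 log2 units (SE 0.24, adjusted p = 0.000490), a mean 2.71 times that of sham, and it was called under all 20 alternatives.

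**Figure D3:**
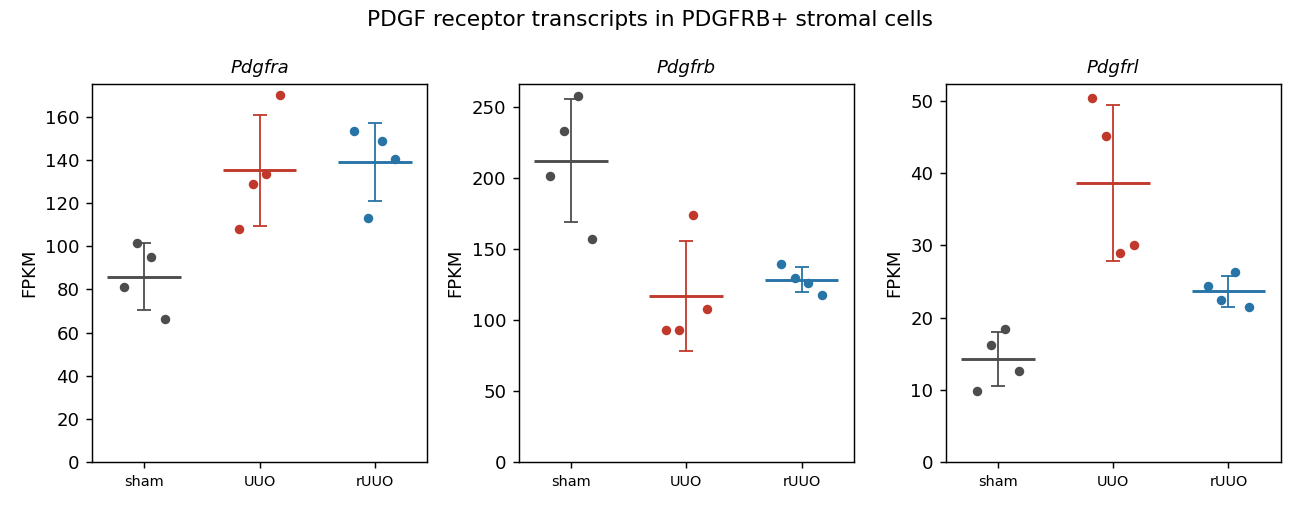
FPKM of Pdgfra, Pdgfrb and Pdgfrl in stromal cells after sham surgery, UUO and rUUO (4 samples each); points are samples, lines are means and bars are SD. Mean Pdgfra goes from 86.0 to 135.2 and 139.0 FPKM, mean Pdgfrb from 212.4 to 117.0 and 128.5 FPKM, and mean Pdgfrl from 14.3 to 38.6 and 23.6 FPKM.

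Within a sample, the ratio of Pdgfra to Pdgfrb does not depend on a scale factor common to all its genes. Its denominator is the gene of the protein the cells were gated on, and the part of the gate in the ratio was not tested. The ratio was 0.403, 0.435, 0.368 and 0.422 in the sham stromal samples, 1.17, 1.39, 0.765 and 1.58 in UUO, and 1.10, 0.871, 1.18 and 1.19 in rUUO. All UUO and rUUO samples were above all sham samples, and UUO and rUUO overlapped. The mean ratio was 0.407 ± 0.029 (SD, n = 4) in sham, 1.22 ± 0.35 (n = 4) in UUO and 1.08 ± 0.15 (n = 4) in rUUO. The difference of the mean log2 ratio, taken on FPKM + 1, was 1.53 for UUO against sham and 1.39 for rUUO against sham, each with an exact two-sided permutation p = 0.0286, the smallest that 4 against 4 samples allow (adjusted p = 0.0429 over the 3 comparisons). For rUUO against UUO it was -0.13 (exact permutation p = 0.600), and without UUO replicate 4 it changed sign to 0.0050.

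**Figure D4:**
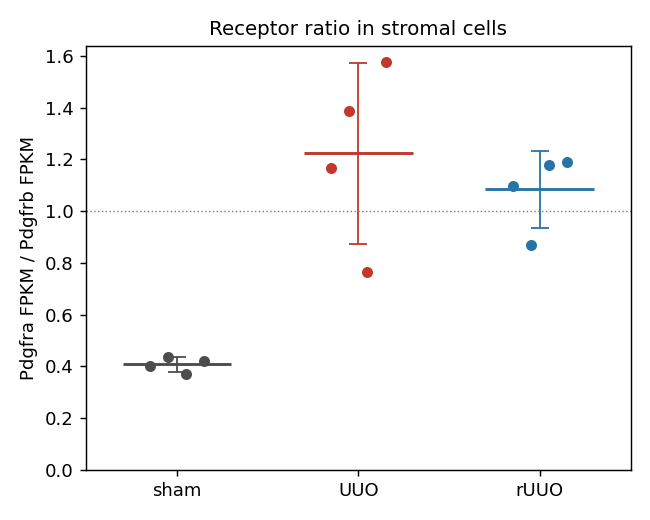
Ratio of Pdgfra FPKM to Pdgfrb FPKM in each stromal sample by surgery, with group means and SD (4 samples each); the dotted line marks equal levels. Sham samples lie between 0.368 and 0.435 and all UUO and rUUO samples at or above 0.765.

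Of the ligand transcripts in the stromal samples, Pdgfa, Pdgfb and Pdgfc fell in UUO, and Pdgfd did not pass the test. Pdgfb went from 16.8, 13.0, 10.5 and 8.51 FPKM in sham to 0.94, 3.65, 0.58 and 0.25 FPKM in UUO. The groups were fully separated, 3 of the 4 UUO samples were below 1 FPKM, and the UUO mean was 0.111 times the sham mean. On the log2 scale this was -2.64 (SE 0.40, adjusted p = 0.000142), called under all 20 alternatives. Because 1 FPKM is added before the logarithm, the fold change of a gene this low is understated.

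Pdgfc fell from 23.4, 18.8, 23.0 and 16.5 FPKM to 8.44, 8.40, 7.39 and 8.28 FPKM, so that UUO samples were closely grouped and all below sham (-1.22 log2 units, SE 0.27, adjusted p = 0.00308). Pdgfa fell from 35.9, 29.0, 22.2 and 25.9 FPKM to 9.80, 16.0, 15.6 and 7.27 FPKM, again without overlap (-1.19 log2 units, SE 0.26, adjusted p = 0.00319). Both were called under all 20 alternatives. Pdgfd was 6.01, 12.8, 6.52 and 19.6 FPKM in UUO, and UUO replicate 4 exceeded every sham sample (-0.58 log2 units, SE 0.36, adjusted p = 0.260).

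Marker transcripts of the stromal sort moved with these changes, and their part in the PDGF results was not tested. Mesangial and renin cell markers were lower in UUO for 4 of 4 genes, and their sum lay between 439 and 687 FPKM in sham, between 8.36 and 38.6 in UUO and between 19.3 and 32.6 in rUUO. Itga8, an integrin of mesangial cells, averaged 293 ± 32.6 FPKM in sham and 11.1 ± 8.90 in UUO (SD, n = 4 each). Fibroblast markers rose for 7 of 7 genes, from 978 to 2987 summed FPKM in sham to 9092 to 15496 in UUO, and Col1a1, a fibrillar collagen chain, went from 174 ± 121 to 2513 ± 762 FPKM.

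Of 7 pericyte and smooth muscle markers, 2 rose and 3 fell in UUO (416.8 to 1007 summed FPKM in sham and 489 to 1141 in UUO), and Cspg4, the pericyte proteoglycan NG2, fell from 57.2 ± 9.91 to 14.7 ± 6.60 FPKM. Transcripts of other cell types were also lower: 5 of 5 distal tubule and collecting duct markers (364 to 565 summed FPKM in sham, 29.5 to 61.6 in UUO), 5 of 6 PT markers tested, 3 of 6 endothelial markers tested (78.8 to 95.9 and 32.5 to 59.7), 3 of 4 podocyte markers and 2 of 6 macrophage markers tested. For platelet markers none of 3 tested passed (0 by limma, 0 at an unadjusted p under 0.05, with 8.02 to 78.8 summed FPKM in sham and 3.95 to 57.2 in UUO), and the T cell markers summed to at most 1.29 FPKM in any stromal sample.

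After reversal, 5 of the 7 stromal PDGF genes still differed from sham past the threshold, against 17.2% of all genes tested (11.6% higher and 5.57% lower). Pdgfra was 153.5, 113.1, 149.0 and 140.5 FPKM, all above sham (0.70 log2 units, SE 0.18, adjusted p = 0.0148), and Pdgfrb was 139.8, 129.9, 126.3 and 118.0 FPKM, all below sham (-0.70, SE 0.21, adjusted p = 0.0291). Pdgfrl was 24.3, 22.5, 26.4 and 21.5 FPKM, above sham and below UUO in every sample (0.72 against sham, SE 0.24, adjusted p = 0.0480). Among ligands, Pdgfc was 5.31, 8.51, 14.4 and 7.11 FPKM (-1.19, SE 0.27, adjusted p = 0.00548) and Pdgfb 2.88, 6.47, 3.19 and 4.24 FPKM (-1.35, SE 0.40, adjusted p = 0.0278), all below sham.

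Pdgfa was also below sham in every rUUO sample, at 19.9, 16.2, 12.4 and 17.2 FPKM, but did not pass the test (-0.74, SE 0.26, adjusted p = 0.0668), and neither did Pdgfd at 6.07, 9.25, 5.54 and 11.5 FPKM (-0.92, SE 0.36, adjusted p = 0.102). Several of the rUUO calls rested on single samples or on the scaling. After quantile normalization the Pdgfra change was 0.42 (adjusted p = 0.0751) and that of Pdgfrl 0.57 (0.133), and rescaled without mitochondrial genes they were 0.47 (0.106) and 0.51 (0.172), all missing the threshold. Quantile normalization called Pdgfa (-0.94, adjusted p = 0.0139) and Pdgfd (-1.10, 0.0434). The Pdgfb call was lost without sham replicate 1 or 2 or rUUO replicate 1, 4 or 6 (adjusted p = 0.0536 to 0.0937), the Pdgfrb call without sham replicate 1, 2 or 3 or rUUO replicate 2, 4 or 6 (0.0573 to 0.0883), the Pdgfra call without sham replicate 4 (0.0528) and the Pdgfrl call without sham replicate 1, 2 or 4, UUO replicate 2 or any 1 rUUO replicate (0.0535 to 0.153). The Pdgfc call held without any 1 sample.

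Between rUUO and UUO, none of the 7 stromal PDGF genes passed by limma, against 4.17% of all genes passing (2.95% higher and 1.22% lower). At the looser threshold of an unadjusted p under 0.05 there were 2. These were Pdgfb, higher by 1.29 log2 units in rUUO (SE 0.40, adjusted p = 0.0842), and Pdgfrl, at -0.65 (SE 0.24, adjusted p = 0.145). All rUUO samples of Pdgfrl lay below all UUO samples, whereas those of Pdgfb overlapped through UUO replicate 2, at 3.65 FPKM. Without that sample the Pdgfb difference passed (1.68, adjusted p = 0.0220, within 0.00464 to 0.205 over the alternatives).

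**Figure D5:**
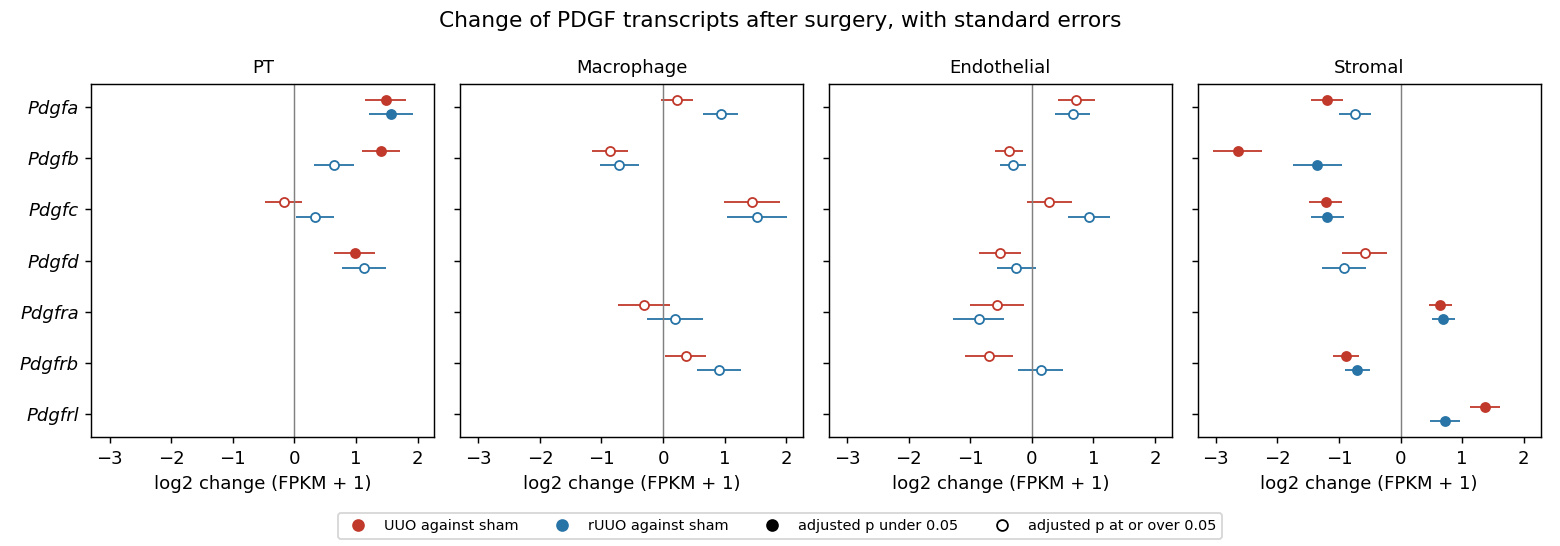
Change of each PDGF gene on the log2(FPKM + 1) scale in UUO and rUUO against sham, by population; points are limma estimates, bars are standard errors, filled points passed the test and genes below the expression filter have no point. In stromal cells Pdgfb has the lowest point (-2.64 in UUO), and in PT the UUO changes of Pdgfa (1.48), Pdgfb (1.41) and Pdgfd (0.98) are filled. Pdgfd passed the filter in PT only through UUO and rUUO.

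In PT, Pdgfa and Pdgfb were higher after UUO and Pdgfc was not. Pdgfd was also called, but it reached the expression filter only through the obstructed groups. Only the 4 ligands passed the expression filter, and 32.8% of all 11416 genes tested passed between UUO and sham, with 27.9% higher in UUO. Pdgfa rose from 1.69, 0.42 and 2.57 FPKM to 4.63, 4.55, 7.13 and 6.79 FPKM (1.48 log2 units, SE 0.33, adjusted p = 0.00423). Pdgfb rose from 1.27, 0.90 and 0.88 FPKM to 4.55, 3.35, 7.17 and 3.13 FPKM (1.41, SE 0.31, adjusted p = 0.00348). Neither gene overlapped between the groups.

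Pdgfd went from 0.32, 0.17 and 0.21 FPKM to 0.64, 1.3, 1.5 and 2.68 FPKM (0.98, SE 0.34, adjusted p = 0.0384), also without overlap. It passed the filter only through the obstructed groups, and its call was lost without any 1 of the 3 sham samples or UUO replicate 2, 3 or 4 (adjusted p = 0.0549 to 0.108), and in all under 10 of 18 alternatives (highest adjusted p = 0.242, after quantile normalization). UUO replicate 2 is the sample whose title holds the words SHAM and UUO and whose treatment label gives UUO, and Pdgfa and Pdgfb remained called without it. Pdgfc, at 3.68, 2.32, 3.61 and 5.25 FPKM, overlapped sham (-0.18, SE 0.29, adjusted p = 0.669).

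The median change of all PT genes was 0.51, and 85.0% of the genes called were higher in UUO. After quantile normalization the median was -0.02 and 51.8% were higher, and the changes of Pdgfa (0.86, adjusted p = 0.0792) and Pdgfb (0.80, adjusted p = 0.0635) then missed the threshold but kept their direction. PT samples after UUO also held fewer PT marker transcripts, with 7 of 7 lower (4331 to 5129 summed FPKM in sham and 1807 to 2686 in UUO). Of 5 distal tubule markers 1 rose, Umod, the uromodulin gene of the thick ascending limb, from 17.4 ± 2.21 FPKM (n = 3) to 147 ± 16.3 (n = 4), and 4 of 5 tested pericyte and smooth muscle markers rose (5.15 to 7.68 and 19.96 to 31.9 summed FPKM). Their part in the ligand changes was not tested.

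After reversal, PT Pdgfa was 7.77, 5.06 and 5.77 FPKM and still above all sham samples (1.57, SE 0.36, adjusted p = 0.0140). It was the 1 PDGF gene of 4 to pass between rUUO and sham, against 7.46% of all genes, and the call was lost without sham replicate 2 or rUUO replicate 2 (adjusted p = 0.0541 to 0.0616). Pdgfd was 2.33, 1.25 and 1.63 FPKM, also above sham (1.13, SE 0.36, adjusted p = 0.0739). Pdgfb was 2.52, 2.26 and 1.71 FPKM, between the sham and UUO samples without overlapping either, and its difference from UUO was -0.76 (SE 0.31, adjusted p = 0.172). None of the 4 passed between rUUO and UUO by limma, against 3.83% of all genes. At the looser threshold of an unadjusted p under 0.05 there was 1.

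In macrophages 5 of the 7 genes passed the expression filter and none passed any surgery comparison by limma. At an unadjusted p under 0.05 there were 2 in UUO against sham, 1 in rUUO against UUO and 4 in rUUO against sham. By the adjusted test, 4.99%, 0.0% and 3.44% of all 13332 genes passed in these comparisons, a stricter threshold than that of the counts just given. At an unadjusted p under 0.05 there were 945 genes in rUUO against UUO. Pdgfb went from 39.6, 37.0, 48.9 and 32.4 FPKM in sham to 40.1, 14.6, 16.1 and 20.7 FPKM in UUO. UUO replicate 1 lay within the sham range and the other UUO samples below it (-0.86, SE 0.29, adjusted p = 0.114). Without UUO replicate 1 the change was -1.16 and passed (adjusted p = 0.0222, within 0.0222 to 0.245 over the alternatives). Platelet markers summed to 195.5 to 252.5 FPKM in sham macrophages and 174.2 to 857.4 in UUO, where 1 of 2 tested was higher. PT markers were lower in macrophages for 5 of 6 tested in UUO and 6 of 6 in rUUO, and their sum lay between 201.7 and 304.1 FPKM in sham, between 42.4 and 78.9 in UUO and between 29.3 and 34.2 in rUUO. Distal tubule markers were lower for 2 of 5 in UUO and 1 of 5 in rUUO (60.8 to 103.5, 13.6 to 39.4 and 33.2 to 69.8 summed FPKM), and the 1 mesangial marker tested, Itga8, was lower in both. Of 7 macrophage markers, Lyz2 and Mrc1 were called higher in both and 0 were called lower. The median of these 7 was -0.12 in UUO and 0.05 in rUUO, against -0.03 for all genes in each. The T cell marker Cd3e, 1 of 2 tested, was higher in both. The part of these transcripts in the macrophage values was not tested.

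Macrophage Pdgfc was 2.25, 0.71, 0.51 and 0.16 FPKM in sham and 2.83, 1.84, 6.14 and 5.89 FPKM in UUO, with overlap between sham replicate 1 and UUO replicate 2 (1.45, SE 0.46, adjusted p = 0.0902). Pdgfa was 13.6, 14.1 and 10.6 FPKM in rUUO, above every sham sample and every UUO sample (8.91, 5.99, 8.32 and 6.83 FPKM), and the change from sham was 0.93 (SE 0.28, adjusted p = 0.0950). It passed with 1 fit over all 4 populations, which pools their spread (adjusted p = 0.0424). Pdgfc and Pdgfrb had sham means below 1 FPKM in macrophages and passed the filter only through UUO and rUUO, so the calls that the pooled fit gave them are not counted here. Over all alternatives the adjusted p of macrophage Pdgfc in UUO ranged from 0.00275 to 0.223.

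In endothelial cells 6 genes passed the filter and none passed the test in any surgery comparison by limma, with 1, 0 and 2 at an unadjusted p under 0.05 in UUO against sham, rUUO against UUO and rUUO against sham. Few genes passed the adjusted test there at all, 1.98%, 0.0597% and 1.77% of 13393. Pdgfb, the ligand for which this population is known, was 35.7, 41.8 and 33.0 FPKM in UUO and 31.1, 48.2, 35.1 and 41.6 FPKM in rUUO, and both groups overlapped sham (-0.37, SE 0.22, adjusted p = 0.519 for UUO). Pdgfa was 27.4, 22.0 and 15.4 FPKM in UUO and 21.6, 22.8, 22.4 and 15.0 FPKM in rUUO. UUO replicate 4 and rUUO replicate 6 lay within the sham range (0.72, SE 0.30, adjusted p = 0.300 for UUO).

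Endothelial Pdgfd was 19.9, 21.3 and 6.96 FPKM in UUO, where replicate 4 stood below every other endothelial sample, and 24.2, 19.9, 14.3 and 14.1 FPKM in rUUO (-0.52, SE 0.34, adjusted p = 0.563 for UUO). Pdgfc was 2.46, 2.49 and 2.40 FPKM in UUO and 2.68, 4.84, 4.67 and 6.09 FPKM in rUUO, the latter overlapping sham through its lowest sample (0.93, SE 0.34, adjusted p = 0.215 for rUUO against sham). Pdgfra and Pdgfrb did not exceed 6.75 FPKM in any endothelial sample.

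Whether the UUO change itself differed between populations was tested in 1 fit over all samples, and 19 of 42 differences passed. Of the 7 genes, 5 differed between PT and stromal cells and 5 between macrophages and stromal cells, against 26.3% and 15.3% of all 16931 genes tested. Between endothelial and stromal cells 4 differed (12.2% of all genes), between PT and macrophages 3 (13.9%) and between PT and endothelial cells 2 (9.82%). Between macrophages and endothelial cells none differed by limma (2.43% of all genes), with 2 at an unadjusted p under 0.05. Pdgfrl in PT, macrophages and endothelial cells and Pdgfrb in PT lay below the expression filter in those populations, so their differences from stromal cells restate the stromal change. The Pdgfrl differences were lost with a pseudocount of 0.1 (adjusted p = 0.188, 0.511 and 0.683), and Pdgfd in PT and Pdgfc and Pdgfrb in macrophages passed the filter there only through UUO and rUUO. Leaving out these pairs of gene and population, 2 genes differed between PT and stromal cells, 2 between macrophages and stromal cells and 3 between endothelial and stromal cells. Between PT and macrophages only Pdgfb and Pdgfa were then left, and between PT and endothelial cells only Pdgfb. These differences share samples and are not independent.

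The UUO change of Pdgfb in stromal cells differed from that in each other population: it was lower by 4.05 log2 units than in PT (difference PT minus stromal of 4.05, adjusted p = 4.66e-09), with 2.27 for endothelial minus stromal (adjusted p = 0.000367) and 1.79 for macrophage minus stromal (adjusted p = 0.00282). Pdgfa likewise differed from stromal cells in all 3, by 2.67 (PT), 1.91 (endothelial) and 1.43 (macrophage), with adjusted p from 1.73e-06 to 0.00754. The 6 Pdgfb and Pdgfa differences from stromal cells were called under all 51 alternatives. The UUO change of Pdgfc in macrophages exceeded that in stromal cells by 2.66 (adjusted p = 4.56e-05). This is 1 of the pairs left out above, since macrophage Pdgfc passed the filter only through UUO and rUUO.

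Other genes of the pathway were taken from 5 lists, whose UUO counts stand beside the shares of all genes that passed: 26.4% in stromal cells, 32.8% in PT, 4.99% in macrophages and 1.98% in endothelial cells. In PT, where 27.9% of all genes were higher, St14, Thbs1, Il34 and Socs3 had sham means below 1 FPKM and passed the filter through the obstructed groups. The PT counts of their lists include these genes and so in part follow from the filter. Among 6 proteases that act on the ligands, stromal Plat, tissue plasminogen activator, averaged 41.6 ± 9.85 FPKM after sham surgery, 107 ± 22.7 after UUO and 132 ± 18.5 after rUUO (SD, n = 4 each). Its UUO change was 1.36 log2 units (SE 0.20, adjusted p = 0.000119), and Pcsk5, a proprotein convertase, rose by 2.26 (SE 0.27). These were the 2 of 6 proteases called in stromal cells in UUO, against 26.4% of all genes, and the median of the list was -0.02, against -0.07 for all genes. In PT 3 of 5 tested were higher (27.9% of all genes), among them St14, matriptase, from 0.993 ± 0.210 (n = 3) to 49.2 ± 9.62 FPKM (n = 4), and Plau, urokinase, from 15.7 ± 1.69 to 44.6 ± 24.0 FPKM. None passed in macrophages (0 of 4, 2 at an unadjusted p under 0.05) or endothelial cells (0 of 6, 0 at an unadjusted p under 0.05) by limma.

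Of 5 ligand-binding and co-receptor proteins, 4 were tested in stromal cells, where 3 rose and 1 fell in UUO, against 13.4% and 13.0% of all genes (list median 1.46). Sparc, a matrix protein that binds PDGF-B, rose from 1881 ± 633 to 11497 ± 2279 FPKM, and Thbs1, thrombospondin 1, from 32.6 ± 10.6 to 119 ± 19.1 FPKM (n = 4 each). Nrp1, a co-receptor, fell from 254 ± 36.8 to 61.5 ± 10.3 FPKM. In PT 4 of 4 tested rose (list median 1.01, against 0.51 for all genes), with Thbs1 from 0.570 ± 0.137 (n = 3) to 6.22 ± 2.22 FPKM (n = 4) and Lrp1, an endocytic receptor, from 1.10 ± 0.84 to 3.56 ± 2.36. This count includes Thbs1, which passed the filter only through the obstructed groups. Endothelial Sparc and Thbs1 and macrophage Lrp1 also rose in UUO, by 1.15, 1.46 and 0.81 log2 units.

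Of 18 proteins that bind activated receptors or act just downstream, 2 were higher in stromal cells in UUO, Stat3 (1.06) and Jak1 (0.53), and 1 lower, Pik3r1, a regulatory subunit of PI3-kinase (-0.90). The list median was 0.00. In PT 7 of 18 were higher, against 27.9% of all genes, among them Stat3 from 4.98 ± 1.42 (n = 3) to 35.2 ± 6.39 FPKM (n = 4) and Nck1, an adaptor, by 1.33 log2 units. None of the 17 tested in endothelial cells or the 16 in macrophages passed by limma, with 5 and 3 at an unadjusted p under 0.05.

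Among 10 attenuators of receptor signalling, Socs3, a cytokine signalling suppressor, rose in UUO in all 4 populations. Its change was 2.87 log2 units in PT, 2.60 in stromal cells, 1.96 in endothelial cells and 1.498 in macrophages. In PT its sham mean was 0.47 FPKM, so it passed the filter there only through the obstructed groups. Spry4, a feedback inhibitor of receptor tyrosine kinases, fell in stromal cells from 25.8 ± 6.40 to 7.23 ± 4.34 FPKM (n = 4 each), and these were the 2 of 10 called there. In PT 8 of 9 tested were higher (median 1.16, against 0.51 and 27.9% higher for all genes), including the phosphatase Ptpn2 (1.53). Macrophages had 2 higher (Socs3 and Ptpn1, 0.84) and 1 lower (Ptprj, -0.66) of 7 tested, and endothelial cells 2 higher (Socs3 and Ptpn12, 0.82) of 10.

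Of the related class III receptors and their ligands, Kit, the stem cell factor receptor, rose in PT from 1.82 ± 1.16 (n = 3) to 39.3 ± 5.96 FPKM (n = 4) and in endothelial cells by 2.11 log2 units (SE 0.42). In stromal cells Kit fell from 8.0 ± 9.52 to 0.34 ± 0.13 FPKM (n = 4 each), by 2.27 on the log2 scale (SE 0.50). Kit passed the filter there only through sham, where its SD exceeded its mean. Il34, a ligand of the CSF1 receptor, rose in PT from 0.773 ± 0.585 to 16.6 ± 3.04 FPKM. Stromal Csf1 rose by 1.35 log2 units and Csf1r fell by 1.42 on the log2 scale. In all, 3 of 4 tested in PT (27.9% of all genes) and 1 of 6 in endothelial cells rose. Stromal cells had 1 higher and 2 lower of 6, and the 2 lower include Kit. None of 4 passed in macrophages by limma (1 at an unadjusted p under 0.05). The Umod values given for PT stand beside these PT changes too, and their part was not tested.

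Over the 44 samples, the genes most like each PDGF gene in log2(FPKM + 1) were ranked by Pearson's r among 16930 genes, as a description. The samples share population and sort, so these r largely order populations. Pdgfra was closest to Fbln1 (0.984), Lama2 and Gpr153, and Pdgfrl to Fbln1 (0.982), Adamts2 and Gpr153. Pdgfrb was closest to Lhfp (0.980), Gucy1a3 and S1pr3. Among ligands, Pdgfb was closest to Hhex (0.936), Ehd4 and Map3k11, Pdgfd to Mcc (0.952), Fzd4 and Epas1, Pdgfc to Cspg4 (0.802), Rtn4rl1 and Plcl1, and Pdgfa to Chtop (0.863), Myl12a and Phactr2. The values for Pdgfc and Pdgfa were the lowest of the 7.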

How the data were processed

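RNA was extracted from the sorted cells (integrity score at least 9), and cDNA was amplified with the Ovation RNA-Seq System V2 before sequencing. The submitters' processing notes name Bowtie2, RSEM, DESeq2, FastQC and mm10, without roles. The values analysed were the FPKM deposited by the authors, 1 value per gene and sample with 2 decimals, already normalised for transcript length and total fragments. No counts were used, so no counting intervals are given. Of 46 value columns, 2 share 1 name (an endothelial UUO sample) and were not used, and 1 PT sham sample was not analysed here. Samples were grouped by GEO labels.

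A gene was tested in a population where its mean FPKM there was 1 or more, with limma 3.58.1 (R 4.3.3; lmFit and eBayes with a trend) on log2(FPKM + 1), with 1 fit per population, and Benjamini-Hochberg adjustment over all genes tested. Pairs of populations in sham used 1 fit of the sham samples, and differences of the UUO change between populations 1 fit of all 44 samples; both kept genes reaching that mean in at least 1 population. The receptor ratio was tested by exact permutation of log2 ratios of FPKM + 1 (Python 3.11.15, numpy 2.4.6). The fits were tested on simulated data. All 7 genes are named, with the 3 most similar genes of each and, from each pathway list, up to 2 rises and 2 falls per population in UUO. The members and lists were chosen with earlier results of these data known. Alternatives were a pseudocount of 0.1, no filter, 3 other scalings, no trend, a replicate block, 1 fit over all populations and leaving out each sample.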

Additional observations from a re-analysis of the deposited data

Results flagged for a closer look

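In 3 of 56 groups of 4 samples, 1 sample stood apart from the other 3 by a gap above Dixon's critical value, a rate that chance gives in about 1 of 20 groups. These were Pdgfa in endothelial rUUO replicate 6 (14.95 FPKM, below the others), Pdgfc in stromal UUO replicate 3 (7.39 FPKM, below) and Pdgfrl in PT UUO replicate 3 (0.91 FPKM, above).

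The UUO change differed between populations for 19 pairs of gene and populations, in log2 units as the change in the first population minus that in the second. Between PT and macrophages the differences were 2.27 for Pdgfb, 1.25 for Pdgfa and -1.62 for Pdgfc. Between PT and endothelial cells they were 1.78 for Pdgfb and 1.501 for Pdgfd. PT minus stromal cells gave 4.05 for Pdgfb, 2.67 for Pdgfa, 1.56 for Pdgfd, 1.13 for Pdgfrb and -1.38 for Pdgfrl. Macrophages minus stromal cells gave 1.79 for Pdgfb, 1.43 for Pdgfa, 2.66 for Pdgfc, 1.25 for Pdgfrb and -1.26 for Pdgfrl. Endothelial minus stromal cells gave 2.27 for Pdgfb, 1.91 for Pdgfa, 1.499 for Pdgfc and -1.17 for Pdgfrl. Pdgfrl outside stromal cells and Pdgfrb in PT lay below the expression filter in their own population, so these differences restate the stromal change. Pdgfd in PT and Pdgfc and Pdgfrb in macrophages passed the filter there only through UUO and rUUO. The PT minus endothelial difference of Pdgfd was lost when any 1 of 26 of the 44 samples was left out (adjusted p from 0.0501 to 0.230, the highest without endothelial UUO replicate 4), and the 3 Pdgfrl differences were lost with a pseudocount of 0.1 (0.188 to 0.683). The PT minus macrophage difference of Pdgfa was lost without 1 of 6 samples (PT sham 2, PT UUO 3 or 4, macrophage sham 3 or 4, macrophage UUO 2; 0.0502 to 0.161). The endothelial minus stromal difference of Pdgfc was lost without 1 of 6 (endothelial sham 2, any endothelial UUO, stromal sham 1 or 3; 0.0548 to 0.0732), and that of Pdgfrl without 1 of 8 (endothelial sham 1 or 4, endothelial UUO 1 or 4, stromal sham 1 or 4, stromal UUO 1 or 2; 0.0571 to 0.115).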

How the results depend on the processing

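The count of PDGF genes that passed between UUO and sham (9 of 22 tests), between sham populations (32 of 42) and for differences of the UUO change (19 of 42) stayed within 1.5 times under every alternative run. The first of these counts includes Pdgfd in PT, which passed the filter only through UUO and rUUO. The sham count includes genes with a sham mean below 1 FPKM in a population compared. The last count includes the pairs of gene and population left out above. The rUUO against sham count of 6 of 22 was 2 without the filter, 2 with the replicate block and 10 with 1 fit over all populations, and 3 to 7 when 1 sample was left out (3 without stromal sham replicate 1 or 2 or stromal rUUO replicate 4 or 6). The rUUO against UUO count of 0 was 1 with the fit over all populations and 0 to 1 when 1 sample was left out (1 without stromal UUO replicate 2). Same-numbered samples did not deviate together (57 pairs of populations within a surgery, r from -0.08 to 0.17; 35 pairs of surgeries within a population, r from -0.06 to 0.10), so the numbers were not treated as pairs. With the replicate block as pairs, the log2 receptor ratio was 1.53 for UUO and 1.30 for rUUO against sham, with an adjusted p = 0.250 that cannot be lower with so few pairs (exact sign permutation). The rUUO against UUO ratio ranged from -0.34 to 0.0050 when 1 sample was left out. The sham PT minus macrophage difference of Pdgfrb (-0.05) was 0.0194 with a pseudocount of 0.1, 0.86 after quantile normalization, 0.47 rescaled without mitochondrial genes, 0.0844 with the block and from -0.23 to 0.0585 without 1 sample, and that of Pdgfra (-0.71) was 0.23 after quantile normalization. Of 20 alternatives, the stromal rUUO against sham call was lost under 8 for Pdgfb, 10 for Pdgfrb, 6 for Pdgfra, 13 for Pdgfrl and 1 for Pdgfc (the block, adjusted p = 0.0577). The causes were not tested. Of 150 tests of PDGF genes, 67 were called under no setting, and 24 of these changed sign under at least 1 alternative.

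Quantile normalization changed the share of called genes that were higher in rUUO against sham in stromal cells from 67.6% to 51.9%, and rescaling without mitochondrial genes changed it to 49.8% and that in stromal UUO against sham from 50.8% to 38.9%. With these 2 scalings in turn, the share was 51.8% and 69.4% in PT UUO against sham (85.0% as reported), 69.6% and 77.8% in PT rUUO against sham (87.3%), 59.3% and 51.4% in PT rUUO against UUO (17.6%), 60.7% and 75.3% in endothelial rUUO against sham (79.3%), 54.7% and 47.7% in endothelial UUO against sham (64.5%), and 54.0% and 61.4% in stromal rUUO against UUO (70.8%). Without counts, depth behind low values such as stromal Pdgfb after UUO is unknown.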
